A study of Gallus gallus with 15 samples.

Results

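Transcripts of chicken abdominal fat were examined for those that lay outside the range from the fed to the fasted state when insulin was neutralized. Male ISA915 broilers 16 to 17 days old were compared in 3 groups of 5, with RNA of each bird on 1 Affymetrix GeneChip Chicken Genome Array. Insulin-neutralized birds could eat freely and were given injections of porcine anti-insulin serum at 0, 2 and 4 h. Fasted birds went without feed for 5 h, fed birds ate freely, and both were injected with normal porcine serum, so all 3 groups share the injections. The fasted group differs from the fed group in feed, and the insulin-neutralized group differs from the fed group in serum alone. The insulin-neutralized mean was set against the midpoint of the fasted and fed means, with weights of 1, -0.5 and -0.5, in a single limma model of all 15 arrays. After removal of probe sets below 3 on the log2 scale on at least 5 arrays, 18612 of the 38535 probe sets were tested. A probe set counted as outside the range when its Benjamini-Hochberg adjusted p was under 0.05 and its insulin-neutralized mean lay above or below both other means. This held for 70 probe sets, which with 4 called inside the range made 74 called in all.

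Insulin binds a receptor tyrosine kinase and, through phosphatidylinositol 3-kinase and AKT, drives glucose uptake, lipid storage, ribosome production and protein synthesis in fat and muscle of mammals. Fasting lowers insulin but also changes glucagon, glucocorticoids and the supply of nutrients from the gut, whereas birds whose insulin is bound by antibody still have feed. A rise in glucagon is not particular to fasting here, since the paper gives raised plasma glucagon for fasted and insulin-neutralized birds alike. In birds, glucagon is the main lipolytic hormone of fat. A transcript outside the range from fed to fasted has a mean above or below both group means. Single birds may still overlap, and the distance to the nearer mean may be small.

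Levels are given as log2 values per bird, in the order of bird numbers, and differences as log2 units with the standard error (SE) of the fit. Levels of different probe sets are not comparable with each other. Replicates are separate birds. Arrays of fed birds 4 and 5 correlated least with the rest, at a mean of 0.955 and 0.958, against 0.963 to 0.977 for the other 13 arrays. The 42 poly-A control probe sets, for transcripts added to the RNA before labelling, averaged 8.75 and 8.54 in these 2 birds and 7.79 to 8.33 in the others. Their part in the results was not tested, and values without both birds are given for most of the gene groups below.

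Of the probe sets tested, 48 were called below both feeding states, 0.258% of all, and 22 above both, 0.118%. With arrays centred on their medians 9 were called below and 8 above. At an unadjusted p under 0.05 stood 2607 probe sets (14%), of which those above both means were 5.85% and those below both 7.06% of all tested. Calls in the contrast itself, inside or outside the range, made up 0.398% of probe sets, 0.274% lower and 0.124% higher than the midpoint. The insulin-neutralized mean lay above both others in 30.9% of all probe sets and below both in 29.7%, called or not, so the position alone is common. Called probe sets below the range lay 0.41 to 2.73 log2 units from the midpoint, with a median of -0.79, and those above lay 0.36 to 1.84 units from it, with a median of 0.68. The median SE of the contrast was 0.15. At least 1.5-fold from the midpoint were 38 of the 48 lower and 16 of the 22 higher probe sets, and at least 1.5-fold from the nearer group mean were 17 and 8. The nearer mean was that of fed birds for 41 lower and 16 higher probe sets, and that of fasted birds for 7 and 6. A gene symbol was paired with 42 lower and 12 higher probe sets, which stand for 41 and 11 genes, and the others are unnamed here.

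A call against the midpoint does not by itself separate insulin-neutralized birds from each feeding state. An unadjusted p under 0.05 against fasted and against fed birds alike was found for 33 of the 48 lower and 18 of the 22 higher probe sets, against 1.83% and 1.32% of all probe sets tested. Adjusted over all probe sets, the larger of these 2 limma p-values was under 0.05 for 0 probe sets, and 587 had it under 0.05 unadjusted, 3.15% of those tested. All 5 insulin-neutralized birds lay below all 10 other birds for 19 of the 48, and above all 10 for 10 of the 22, while 0.355% and 0.306% of all probe sets showed such a separation. Pairwise calls at the same adjusted threshold numbered 92 against fed birds (0.494%), 756 against fasted birds (4.06%) and 1794 between fasted and fed birds (9.64%). These comparisons share arrays and are given for scale. The last probe set called had an adjusted p of 0.0488 and the first one not called 0.0502.

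**Figure D1:**
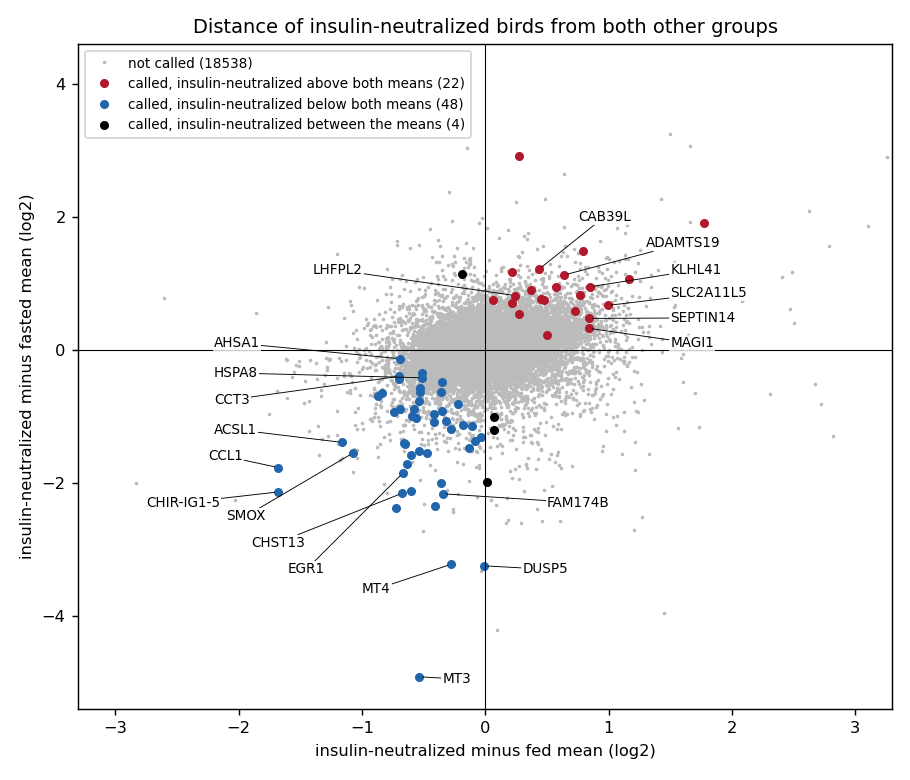
Each point is 1 of 18612 probe sets, placed by its insulin-neutralized mean minus the fed mean (horizontal axis, log2) and minus the fasted mean (vertical axis, log2), with 18538 probe sets not called in grey. The 48 called below both means fall in the lower left and the 22 called above both in the upper right, most of them farther from the fasted mean than from the fed mean, and 2 probe sets lie beyond the axes.

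A first set of called transcripts had no call between fasted and fed birds, 21 lower and 13 higher probe sets. All 34 had an unadjusted p under 0.05 against each feeding state, and in 17 of the 21 and 8 of the 13 the insulin-neutralized birds did not overlap with any other bird. These counts are a description, since the probe sets were chosen on the same values. The lower ones are 21 named genes of polyamine and fatty acid metabolism, protein folding, RNA and nucleolar work, cell death and signalling, while 5 of the higher ones are named.

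SMOX encodes spermine oxidase, which turns spermine back into spermidine. Its values were 7.0, 7.62, 6.76, 7.25 and 7.10 in insulin-neutralized birds, 8.33, 8.65, 8.70, 9.19 and 8.63 in fasted birds and 8.43, 7.92, 7.73, 7.80 and 9.22 in fed birds. Every insulin-neutralized bird was below every other bird, and the mean lay 2.49-fold under the midpoint (log2 difference -1.31, SE 0.23, adjusted p = 0.0392 with limma) and 2.11-fold under the fed mean. Of the 11 polyamine genes kept, 3 lay below both means at an unadjusted p under 0.05 and 1 above, against 8.13% and 5.83% of all 9243 genes. The other 2 below were ODC, ornithine decarboxylase, at -0.65 (adjusted p = 0.234), and AZIN1, the antizyme inhibitor that protects it, at -0.42 (adjusted p = 0.10), and neither was called. OAZ2, an antizyme, stood at 0.34 above the midpoint (adjusted p = 0.273).

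ACSL1 joins long-chain fatty acids to coenzyme A, the step before their storage or oxidation. One of its probe sets gave 9.41, 9.98, 9.52, 9.34 and 9.70 in insulin-neutralized birds, 11.04, 10.62, 11.26, 11.24 and 10.76 in fasted birds, and 11.44, 11.23, 10.94, 9.96 and 10.20 in fed birds. Only fed bird 4 reached into the insulin-neutralized range. The difference from the midpoint was -1.28 (SE 0.23, adjusted p = 0.0392), and without fed birds 4 and 5 it was -1.5 (adjusted p = 0.00675). A second ACSL1 probe set, brighter on the arrays, lay -0.76 from the midpoint (adjusted p = 0.201), and -1.02 without those birds (adjusted p = 0.0474). ACSS1A, an acyl-CoA synthetase for short chains such as acetate, was 1.66-fold lower than the midpoint on 1 probe set (adjusted p = 0.0392), with insulin-neutralized birds at 7.63 to 7.95, all below fasted birds at 8.43 to 8.85 and fed birds at 7.96 to 8.72. Another ACSS1A probe set averaged 9.90 in insulin-neutralized, 9.93 in fasted and 9.55 in fed birds, so its direction was opposite.

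HSPA8, the constitutive cytosolic HSP70 chaperone, was among the brightest of these probe sets. It stood at 13.77, 13.86, 13.94, 13.75 and 13.65 in insulin-neutralized birds, at 14.39, 14.06, 14.16, 14.33 and 14.12 in fasted birds and at 14.15, 14.43, 14.44, 14.27 and 14.24 in fed birds. Every insulin-neutralized bird was below all others, and the mean was 1.38-fold under the midpoint (-0.47, SE 0.08, adjusted p = 0.0392) and 1.34-fold under the fasted mean. CCT3, a subunit of the cytosolic chaperonin that folds actin and tubulin, was at 8.30, 8.42, 8.29, 8.62 and 8.61 in insulin-neutralized birds, at 8.84, 8.84, 8.87, 8.77 and 8.94 in fasted birds and at 9.05, 9.27, 8.84, 9.19 and 9.39 in fed birds. It too was lower in each insulin-neutralized bird than in any other bird, and fell by 0.55 on the log2 scale (SE 0.09, adjusted p = 0.0392). UBXN7, an adaptor of the p97 segregase for ubiquitinated proteins, was 1.41-fold lower (adjusted p = 0.0392), again in every insulin-neutralized bird against every other bird.

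Further lower transcripts serve RNA and the nucleolus. EXOSC2 is a cap subunit of the RNA exosome, and its values were 9.17, 9.48, 9.51, 9.22 and 9.05 in insulin-neutralized birds, 9.97, 10.23, 9.95, 10.30 and 10.43 in fasted birds and 9.71, 9.72, 9.82, 10.24 and 10.42 in fed birds. Insulin-neutralized birds were all below the rest, at -0.79 from the midpoint (SE 0.14, adjusted p = 0.0392). NOL7, a nucleolar protein, was 1.58-fold lower, PWP1, a nucleolar factor of ribosome synthesis, 1.74-fold lower, GRSF1, an RNA-binding protein of mitochondrial RNA granules, 1.35-fold lower, and REXO1, a member of the RNA exonuclease family, 1.34-fold lower (adjusted p = 0.0392, 0.0417, 0.0392 and 0.0488 with limma, in that order). In all of them but PWP1 every insulin-neutralized bird was below every other bird. Another NOL7 probe set lay inside the range, at means of 4.10 in insulin-neutralized, 5.74 in fasted and 3.58 in fed birds.

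Among regulators of survival and signalling, PIM3, a serine/threonine kinase that promotes survival and protein synthesis, gave 8.78, 9.01, 8.97, 8.36 and 8.60 in insulin-neutralized birds, 9.66, 9.94, 10.02, 9.81 and 9.28 in fasted birds and 9.47, 9.50, 9.31, 9.14 and 9.28 in fed birds. It was lower in each insulin-neutralized bird than in any other, with a difference of -0.80 (SE 0.13, adjusted p = 0.0392). MDM2, the ubiquitin ligase of p53, was the tightest, between 9.58 and 9.62 in insulin-neutralized birds, 10.004 and 10.47 in fasted birds and 9.93 and 10.49 in fed birds (-0.58, SE 0.10, adjusted p = 0.0404). BAK1, which opens the outer mitochondrial membrane in apoptosis, was 1.72-fold lower (adjusted p = 0.0477), and insulin-neutralized birds at 5.76 to 6.54 stayed under fasted birds at 6.56 to 7.42 and fed birds at 6.93 to 7.38. Lower in every insulin-neutralized bird than in any other bird were also ETV5, an ETS factor downstream of growth factor signalling (1.79-fold, adjusted p = 0.0433), ULK3, a kinase related to the autophagy kinase ULK1 (1.67-fold, adjusted p = 0.0477), SETD7, a lysine methyltransferase (1.49-fold, adjusted p = 0.0457), and PPP3CB, a catalytic subunit of calcineurin (1.46-fold, adjusted p = 0.0451). A second PPP3CB probe set pointed the other way, at 9.86 in insulin-neutralized, 9.36 in fasted and 9.45 in fed birds.

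Other lower transcripts belong to immune or blood-derived cells in mammals or birds. CHIR-IG1-5, of the chicken immunoglobulin-like receptor family, had the largest distance to the nearer mean among called genes together with CCL1, 3.2-fold in each. Its values were 4.70, 3.71, 2.91, 4.80 and 4.43 in insulin-neutralized birds, 5.78, 7.28, 5.72, 6.14 and 6.30 in fasted birds and 5.09, 5.31, 5.37, 6.27 and 6.89 in fed birds, and all insulin-neutralized birds lay below all others (-1.91, SE 0.37, adjusted p = 0.0477). This family has many near-identical copies, so which of them the probe set reads is uncertain. CCL1, a chemokine, lay -1.73 from the midpoint (adjusted p = 0.0477) and overlapped in 1 insulin-neutralized bird at 5.19, and DNASE1L3, a secreted nuclease of macrophages and dendritic cells, lay -1.03 from it (adjusted p = 0.0488). The T cell markers CD3D and CD3E were also below both means, at -0.50 and -0.42 (adjusted p = 0.192 and 0.289). Of the 6 T cell markers kept, 3 lay below both means, 1 above both and 2 inside the range. The part of T cells in these values was not tested.

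The named transcripts above both feeding states were of mixed kinds. ADAMTS19, a secreted metalloproteinase, was at 8.60, 8.54, 8.66, 8.34 and 8.42 in insulin-neutralized birds, at 7.88, 6.98, 7.13, 7.74 and 7.20 in fasted birds and at 7.95, 8.13, 8.03, 7.84 and 7.41 in fed birds. Insulin-neutralized birds lay above all others, with a 1.84-fold difference from the midpoint (0.88, SE 0.16, adjusted p = 0.0392). ADAM12, a membrane metalloproteinase expressed in mesenchymal precursors, was 1.52-fold higher, with insulin-neutralized birds above all others (adjusted p = 0.0488), and its 3 other probe sets kept had the highest mean in insulin-neutralized birds as well. SLC2A11L5, of the glucose transporter family, was 1.78-fold higher (adjusted p = 0.0451) and SEPTIN14, a septin, 1.58-fold higher (adjusted p = 0.0433), both with some overlap. KLHL41, a kelch protein of muscle sarcomeres, was at 4.35, 3.86, 4.86, 4.35 and 3.60 in insulin-neutralized birds and at 3.19 to 3.42 in fasted and 3.19 to 3.53 in fed birds, near the floor of the arrays, so its 1.86-fold difference is read as a lower bound (adjusted p = 0.0392). ACTA1, a defining marker of skeletal muscle, was 0.70 above the midpoint (adjusted p = 0.182), and its part in the KLHL41 value was not tested. An unnamed probe set was near the floor in fasted and fed birds, with means of 3.70 and 3.84, so its 3.58-fold distance from the midpoint and 3.41-fold distance from the nearer mean are also lower bounds (adjusted p = 0.0367), with insulin-neutralized birds at 5.12 to 6.14, fasted birds at 3.18 to 4.53 and fed birds at 3.46 to 5.07.

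**Figure D2:**
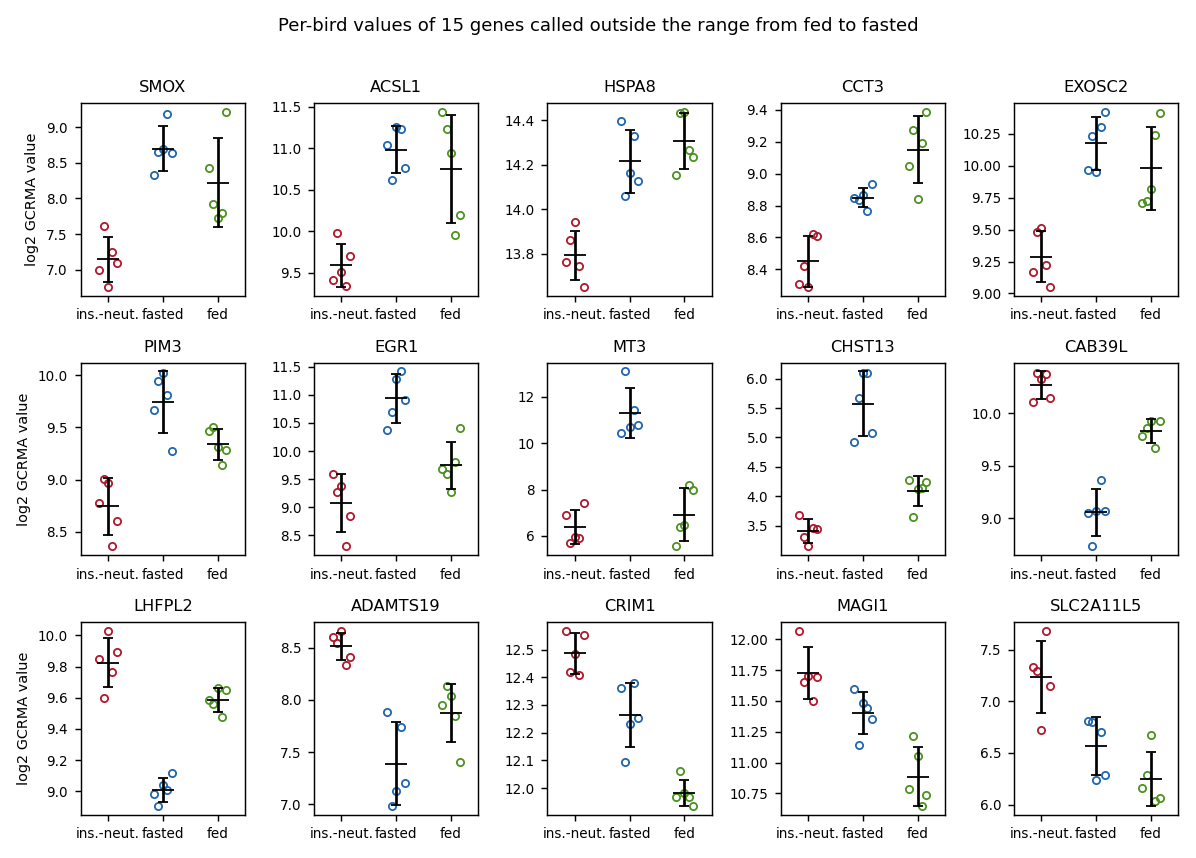
Log2 level of 15 called genes in each bird (points) with group mean ± SD (bars), with insulin-neutralized birds left, fasted birds in the middle and fed birds right. SMOX, HSPA8, CCT3, EXOSC2 and PIM3 are lowest in every insulin-neutralized bird, while MT3 and EGR1 show fasted birds high and insulin-neutralized birds near or below fed birds.

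These calls depended on all 5 insulin-neutralized birds being present. With any 1 of them left out, 0 of the 21 lower genes kept an adjusted p under 0.05 (0.0535 to 0.148), and of the 5 named higher ones KLHL41 alone was called, without insulin-neutralized bird 5 (adjusted p = 0.0358). Without fasted bird 2 all 26 lost the call (0.0550 to 0.0648), and without fasted bird 3, 4 or 5 all were lost but NOL7, UBXN7 and PIM3, each in 1 of these fits (adjusted p = 0.0371, 0.0443 and 0.0235). Without fed birds 4 and 5, 11 of the 21 lower genes were called, ACSL1, ACSS1A, EXOSC2, GRSF1, HSPA8, MDM2, NOL7, PIM3, PPP3CB, SETD7 and SMOX, and 0 of the 5 higher ones (adjusted p = 0.0607 to 0.101). The direction from the midpoint turned in none of these fits, which says little about stability, since the genes were chosen on the same birds.

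Among genes of protein folding and ribosome production, more lay below both feeding states than among genes at large, of which 0.335% were called below and 0.108% above. Of 13 genes of the cytosolic chaperonin and prefoldin, 10 had the lowest mean in insulin-neutralized birds, 0 had the highest, and 7 were below both means at an unadjusted p under 0.05 (53.8%, against 8.13% of all genes). These were CCT3, the only one called, CCT7 at -0.43 (adjusted p = 0.112), CCT6A at -0.24, CCT5 at -0.20, CCT4 at -0.19 and the prefoldin subunits PFDN5 at -0.29 and PFDN2 at -0.20. All of these but CCT3 overlapped with fasted birds. For CCT4, CCT6A, CCT5, PFDN5 and PFDN2 the distance from the midpoint owes most to fed birds. CCT4 was at 11.70 to 12.01 in insulin-neutralized, 11.82 to 12.12 in fasted and 12.10 to 12.53 in fed birds. In the same order, CCT6A was at 11.36 to 11.67, 11.51 to 11.83 and 11.83 to 12.22. CCT5 was at 11.01 to 11.31, 11.13 to 11.47 and 11.29 to 11.69. PFDN5 was at 10.92 to 11.09, 10.93 to 11.44 and 11.12 to 11.87, and PFDN2 at 10.70 to 10.82, 10.73 to 11.05 and 10.72 to 11.30. Bird means over the list were 11.09 to 11.28 in insulin-neutralized birds, 11.22 to 11.40 in fasted birds and 11.43 to 11.63 in fed birds. No test was made of the lists, which are described by their counts.

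Among HSP70 and HSP90 genes with their cochaperones, 9 of 37 were below both means at that p (24.3%) and 0 above. HSPA8 and AHSA1, the activator of the HSP90 ATPase, were called. HSPA2, an HSP70, was at -0.51 (adjusted p = 0.093), HSPH1, a nucleotide exchange factor of HSP70, at -0.74 (adjusted p = 0.294) and HSP90AA1, the inducible cytosolic HSP90, at -0.35 (adjusted p = 0.340). HSP90AA1 lay only 0.15 below the fasted mean. In the endoplasmic reticulum 5 of 26 were below (19.2%), among them HSPA5, the HSP70 of that compartment, at -0.41 (adjusted p = 0.160), and 1 above. The paper lists HSPA5 as lowered to a similar extent by insulin neutralization and by fasting, so its distance from the midpoint owes most to fed birds.

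Ribosome biogenesis gave 19 of 56 genes below both means at an unadjusted p under 0.05 (33.9%) and 0 above, with 36 of the 56 lowest and 6 highest in insulin-neutralized birds and a median difference of -0.17, against 0.00 over all genes. MYC, a transcription factor that drives ribosome genes, was the only one called, and it lay inside the range without fed birds 4 and 5. RRP12, a factor of pre-ribosome export, was at 7.28, 7.80, 7.58, 7.16 and 7.41 in insulin-neutralized birds, at 8.09, 8.33, 7.82, 8.02 and 8.10 in fasted birds and at 8.36, 7.81, 7.87, 8.42 and 8.04 in fed birds. Insulin-neutralized birds lay below all others, but the difference of -0.64 missed the call (SE 0.13, adjusted p = 0.0542). NOP2, an rRNA methyltransferase, at -0.54 (adjusted p = 0.0722) and NIP7, of large ribosomal subunit assembly, at -0.51 (adjusted p = 0.114) also had no overlap between insulin-neutralized and other birds. The box C/D and H/ACA proteins NOP56, DKC1, NHP2 and GAR1 lay -0.29 to -0.48 from the midpoint, each with an adjusted p over 0.05.

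Further lists of protein turnover and translation are given by their counts, against 8.13% of all genes below both means at an unadjusted p under 0.05. The mean was lowest in insulin-neutralized birds, at any p, for 30.2% of all genes and 55.9% of proteasome genes. Proteasome subunits had 6 of 34 genes below both means at that p (17.6%) and 19 with the lowest mean in insulin-neutralized birds, aminoacyl-tRNA synthetases 5 of 20 (25%), translation factors 5 of 32 (15.6%) and RNA processing 5 of 39 (12.8%), among them EXOSC2 and TOE1, a deadenylase, at -0.48 (adjusted p = 0.067). Without fed birds 4 and 5 the ribosome biogenesis list had 22 genes below, HSP70 and HSP90 genes 11, the chaperonin list 5 and the proteasome list 4, against 6.69% of all genes. Endoplasmic reticulum genes then had 3 (11.5%), translation factors 3 (9.38%), aminoacyl-tRNA synthetases 4 and RNA processing 4 (10.3%). For the ribosome biogenesis, HSP70 and HSP90, chaperonin and proteasome lists, in that order, median centring gave 20, 9, 6 and 6 genes below. Quantile normalization gave 20, 7, 6 and 5 in the same lists.

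**Figure D3:**
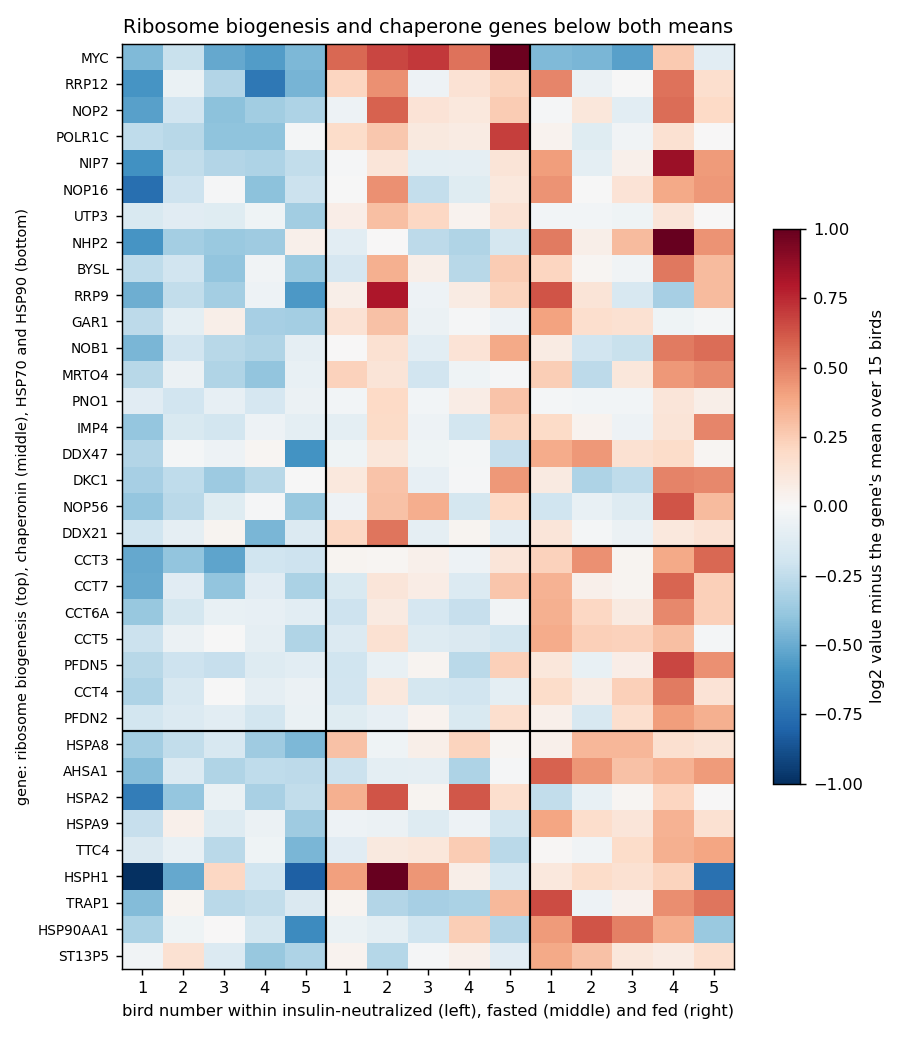
Log2 level of 19 ribosome biogenesis, 7 chaperonin and prefoldin and 9 HSP70 and HSP90 genes (rows) in each bird (columns: insulin-neutralized, fasted, fed), minus the mean of the gene over all birds, with colours clipped at 1 log2 unit. The genes shown are those below both means at an unadjusted p under 0.05, so the low insulin-neutralized columns are a matter of selection, and the bird-to-bird spread is what the plot adds.

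**Figure D4:**
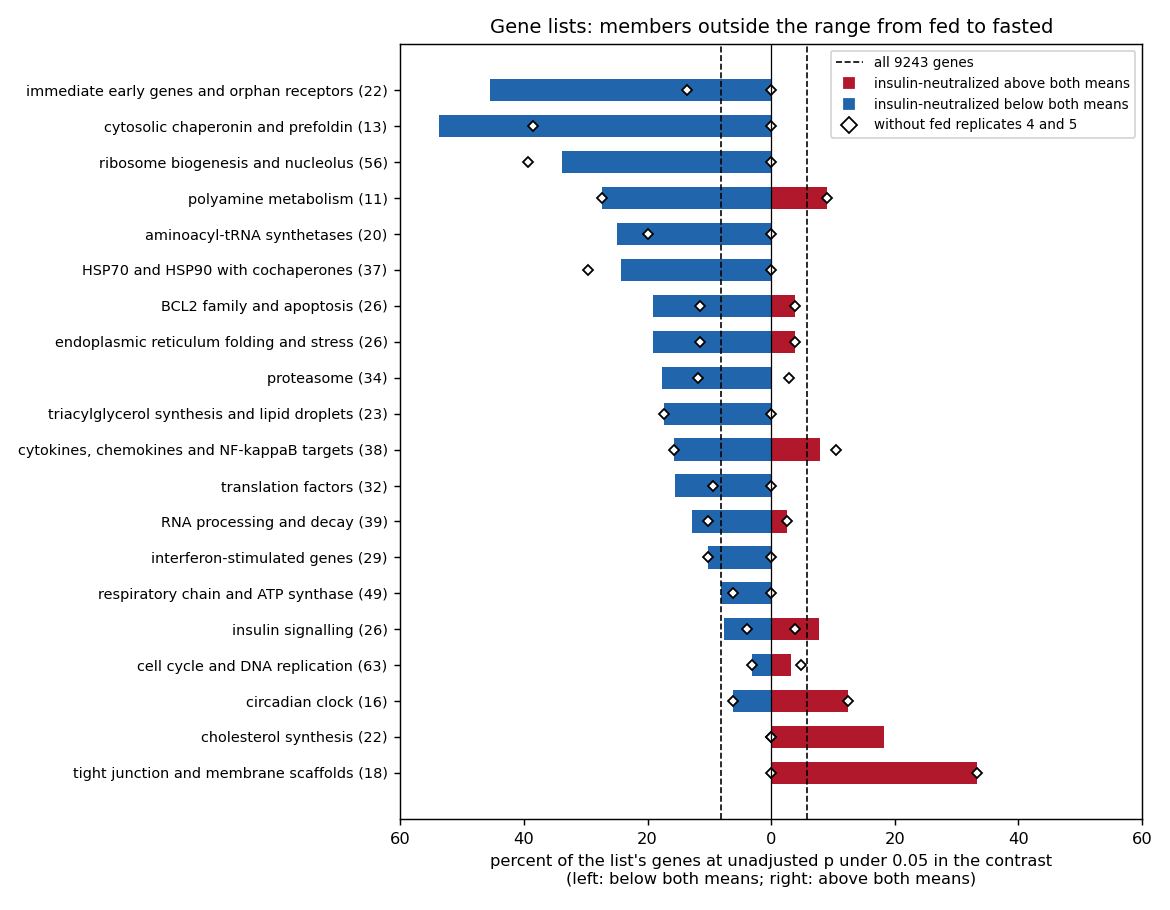
Percent of the genes of each list below both means (bars to the left) and above both means (bars to the right) at an unadjusted p under 0.05. Dashed lines mark 8.13% below and 5.83% above over all 9243 genes, diamonds mark the values without fed birds 4 and 5, and the chaperonin list reaches farthest to the left at 53.8%.

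A second set of transcripts already differed between fasted and fed birds, and insulin-neutralized birds lay on the far side of fed birds from the fasted state. They comprise 26 lower probe sets, 19 named genes raised by fasting, and 7 higher ones, 4 named genes lowered by fasting. Here the call against the midpoint owes most to the distance from fasted birds, and 12 of the 26 and 3 of the 7 had an unadjusted p under 0.05 against each feeding state.

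EGR1, an immediate early transcription factor, was measured by 2 called probe sets. One read 9.60, 9.27, 9.39, 8.31 and 8.84 in insulin-neutralized birds, 10.37, 10.70, 11.28, 11.42 and 10.91 in fasted birds and 9.68, 9.59, 9.27, 9.80 and 10.40 in fed birds. Insulin-neutralized and fed birds overlapped, and the difference from the fed mean was 1.59-fold, with an adjusted p = 0.239 against fed birds alone. The difference from the midpoint was -1.26 (SE 0.23, adjusted p = 0.0433), and that of the other probe set -1.09 (adjusted p = 0.0417). Of 22 immediate early genes and orphan receptors, 10 were below both means at an unadjusted p under 0.05 (45.5%), but 3 were without fed birds 4 and 5. DUSP5, a nuclear phosphatase of ERK, was called at -1.63 (adjusted p = 0.0392) yet lay only 0.01 below the fed mean, and CREM, a cAMP-responsive factor, at -1.18 (adjusted p = 0.0488) lay 0.36 below it. For MYC the distances were -0.65 from the midpoint (adjusted p = 0.0451) and -0.18 from the fed mean. Fed birds 1 to 3 had MYC at 9.77 to 9.88, within the insulin-neutralized values of 9.76 to 10.10. Fed birds 4 and 5 stood at 10.58 and 10.21, and without them the insulin-neutralized mean lay above the fed mean. MAFF, a small MAF factor, and NAB1, a corepressor of EGR proteins, were called lower than the midpoint (adjusted p = 0.0433 and 0.0451) but stayed inside the range, 0.02 and 0.07 above the fed mean.

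The metallothioneins MT3 and MT4, which bind zinc and copper and are induced by glucocorticoids, had the lowest contrasts of this kind. MT3 gave 6.89, 5.71, 5.94, 5.91 and 7.40 in insulin-neutralized birds, 10.44, 13.10, 10.68, 11.44 and 10.79 in fasted birds and 5.55, 6.37, 6.45, 8.19 and 8.0 in fed birds. Fasted birds stood apart, while insulin-neutralized and fed birds overlapped and differed by 1.45-fold. The fed values of 8.19 and 8.0 came from the 2 fed birds whose arrays correlated least with the rest. Other fed values were within or below the insulin-neutralized ones. Without those 2 birds the insulin-neutralized means of MT3 and MT4 lay above the fed means, inside the range. Neither was then called (-2.34, adjusted p = 0.0721 for MT3 and -1.47, adjusted p = 0.0582 for MT4). With all birds the contrasts were -2.73 for MT3 (SE 0.51, adjusted p = 0.0433) and -1.75 for MT4 (SE 0.34, adjusted p = 0.0451). The 2 related transcripts may share probes.

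CHST13, a chondroitin sulfotransferase, was nearer to a separation from fed birds. It stood at 3.69, 3.31, 3.15, 3.47 and 3.45 in insulin-neutralized birds, at 4.92, 5.67, 6.09, 6.09 and 5.08 in fasted birds and at 4.27, 3.65, 4.13, 4.14 and 4.24 in fed birds, with fed bird 2 alone inside the insulin-neutralized range. Its 2.67-fold distance to the midpoint is a lower bound because insulin-neutralized birds lay near the floor (adjusted p = 0.0190). Also lower, at least 1.5-fold from the nearer mean, were ADAMTS9, a secreted metalloproteinase (1.65-fold, adjusted p = 0.0477), and RGCCL (1.57-fold, adjusted p = 0.0433). RANBP10, a RAN-binding scaffold protein, lay 1.67-fold under the midpoint but 1.21-fold under fed birds (adjusted p = 0.0190), and MGAT3, a glycosyltransferase of N-glycans, 1.59-fold and 1.03-fold (adjusted p = 0.0190). The others, at distances of 0.09 to 0.54 from fed birds, were PHLDA2, FAM174B, SLC25A25, the mitochondrial ATP-Mg carrier, NDEL1, CH25H, which makes 25-hydroxycholesterol, RAB31, CDS2, of phosphatidylinositol synthesis, and TRIB2, a pseudokinase.

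CAB39L, a scaffold that activates the kinase LKB1 upstream of AMPK, had the smallest adjusted p of the named genes. It was at 10.10, 10.38, 10.32, 10.38 and 10.14 in insulin-neutralized birds, at 9.05, 8.73, 9.07, 9.36 and 9.07 in fasted birds and at 9.78, 9.86, 9.93, 9.66 and 9.93 in fed birds. The 3 groups did not overlap at all, and fasted birds, with the lowest values, lay 0.78 below fed birds. The insulin-neutralized mean was 1.77-fold above the midpoint (0.82, SE 0.10, adjusted p = 0.00762) and 1.35-fold above the fed mean (adjusted p = 0.0913 against fed birds alone). A second CAB39L probe set was called at 1.62-fold (adjusted p = 0.0392) with overlap between insulin-neutralized and fed birds. A further CAB39L probe set was not called (adjusted p = 0.356). It averaged 6.36 in insulin-neutralized, 5.56 in fasted and 6.34 in fed birds, and so lay only 0.02 above the fed mean. LHFPL2, a tetraspan membrane protein, was 1.44-fold above the midpoint, at 9.60 to 10.03 in insulin-neutralized, 8.90 to 9.12 in fasted and 9.48 to 9.66 in fed birds (adjusted p = 0.0190). ALS2L rose 1.56-fold (adjusted p = 0.0433) and PBX3, a homeobox cofactor, 1.33-fold (adjusted p = 0.0477), although PBX3 lay 1.04-fold above fed birds.

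Of the 54 named probe sets outside the range, 1 of CAB39L was the only one called whichever bird was left out, with adjusted p-values up to 0.0374. LHFPL2 was not called without insulin-neutralized birds 1, 3 or 5 or fasted bird 2 (adjusted p up to 0.0806). CHST13, MGAT3 and RANBP10 lost the call without 5 of the 15 birds, insulin-neutralized birds 1, 2 and 3 and fasted bird 2 among them (adjusted p up to 0.0674, 0.0849 and 0.0806). Of the 20 lower named probe sets of this kind, 0 to 3 were called without 1 insulin-neutralized bird, and CHST13, MGAT3, MYC and RANBP10 without fed birds 4 and 5. In that last fit MYC lay inside the range.

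Of the transcripts called between fasted and fed birds, 3 lay beyond the fasted state. MAGI1, a scaffold of tight junctions, was at 12.07, 11.65, 11.70, 11.50 and 11.70 in insulin-neutralized birds, at 11.59, 11.14, 11.48, 11.44 and 11.35 in fasted birds and at 10.78, 11.21, 11.05, 10.65 and 10.73 in fed birds. It was above the midpoint by 0.58 (SE 0.12, adjusted p = 0.0488) and 1.25-fold above fasted birds, with 1 fasted bird inside the insulin-neutralized range. CRIM1, a membrane protein that binds bone morphogenetic proteins, was 1.29-fold above the midpoint (adjusted p = 0.0392) and above every other bird in each insulin-neutralized bird, at 12.41 to 12.57, against 12.10 to 12.38 in fasted and 11.94 to 12.06 in fed birds. Another CRIM1 probe set lay inside the range, at means of 10.69 in insulin-neutralized, 10.85 in fasted and 10.31 in fed birds. AHSA1 was the lower counterpart, at 10.82 to 11.11 in insulin-neutralized, 10.94 to 11.24 in fasted and 11.54 to 11.83 in fed birds (1.33-fold from the midpoint, adjusted p = 0.0404). Its distance from fasted birds was 1.10-fold (adjusted p = 0.464 against fasted birds alone), so it was low in both groups. Without any 1 insulin-neutralized bird AHSA1 was not called (adjusted p = 0.0535 to 0.115).

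Of 18 tight junction and membrane scaffold genes, 6 were above both means at an unadjusted p under 0.05 (33.3%, against 5.83% of all genes) and 0 below, and 6 were so without fed birds 4 and 5. Besides MAGI1 these were DLG5 at 0.38, MPDZ at 0.49, PARD3 at 0.35, PARD6G at 0.35 and JAM2 at 0.25 (adjusted p = 0.221, 0.289, 0.301, 0.289 and 0.306 in that order), and MAGI1 alone was called. Markers of ciliated and lung epithelium, 8 kept, had the highest mean in insulin-neutralized birds for 6, also without fed birds 4 and 5, with a median of 0.60 and 0 at an unadjusted p under 0.05. Their part in these values was not tested.

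The glucagon transcript GCG, measured in fat itself, had the same order without reaching the threshold. It was at 8.40, 8.35, 8.44, 8.60 and 8.01 in insulin-neutralized birds, at 8.0, 7.55, 7.66, 7.82 and 7.37 in fasted birds and at 7.34, 7.47, 7.11, 6.34 and 5.83 in fed birds. Insulin-neutralized birds were above all others, 2.16-fold from the midpoint (1.11, SE 0.23, adjusted p = 0.0589), and without fed birds 4 and 5 the difference was 0.86 (adjusted p = 0.0393). GCGR, the glucagon receptor, was lowest in insulin-neutralized birds, at 6.68 to 8.05, against 7.49 to 8.82 in fasted and 8.18 to 9.42 in fed birds (-1.13, SE 0.26, adjusted p = 0.0828). Insulin signalling had 2 of 26 genes above both means and 2 below at an unadjusted p under 0.05. These are 7.69% each, near the 5.83% above and 8.13% below of all genes. They were PIK3R1 and PIK3R3, regulatory subunits of phosphatidylinositol 3-kinase, each at 0.41, and FOXO1, the AKT-inhibited factor, at -0.35 and RHEB, an activator of mTORC1, at -0.16. None of these 4 was called (adjusted p = 0.173, 0.294, 0.233 and 0.347), and without fed birds 4 and 5 the list had 1 above and 1 below.

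Triacylglycerol synthesis and lipid droplets had 4 of 23 below both means at that p (17.4%, against 8.13% of all genes), and also 4 without fed birds 4 and 5 (17.4%, against 6.69%). Among them was AGPAT2, an acyltransferase of that pathway, at -0.46 (SE 0.10, adjusted p = 0.0686) with insulin-neutralized birds at 8.66 to 8.81, all below fasted birds at 9.05 to 9.29 and fed birds at 8.83 to 9.53. CIDEC, a protein of large lipid droplets, was at -0.70 (adjusted p = 0.113) and PLIN2, a droplet coat protein, at -0.81 (adjusted p = 0.202). Fatty acid synthesis had 1 gene above (5%) and 2 below (10%) of 20, and fatty acid oxidation 3 above (8.11%) and 4 below (10.8%) of 37, against 5.83% and 8.13% of all genes. Cholesterol synthesis had 4 above (18.2%) and 0 below of 22, with SQLE, squalene epoxidase, at 0.99 (adjusted p = 0.132). SQLE averaged 11.40 in insulin-neutralized, 9.60 in fasted and 11.22 in fed birds. It lay only 0.18 above the fed mean, so its distance from the midpoint owes most to fasted birds. Without fed birds 4 and 5 the cholesterol list had 0 above.

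Of 38 genes of cytokines, chemokines and NF-kappaB targets, 18 had the lowest mean in insulin-neutralized birds and 11 the highest. At an unadjusted p under 0.05 stood 6 below (15.8%) and 3 above (7.89%), against 8.13% and 5.83% of all genes. CXCR4, a chemokine receptor, was among those above, at 0.90 (adjusted p = 0.164). CISH, a feedback inhibitor induced by STAT5, was at 5.48, 6.14, 5.76, 5.75 and 6.12 in insulin-neutralized birds, at 7.0, 7.20, 6.40, 6.77 and 7.09 in fasted birds and at 6.96, 6.28, 6.34, 7.81 and 6.56 in fed birds. Insulin-neutralized birds lay below all others, at -0.99 from the midpoint (SE 0.23, adjusted p = 0.0803). SOCS3, the inhibitor induced by STAT3, was at -1.33 (adjusted p = 0.116) and STAT3 at -0.44 (adjusted p = 0.271). Interferon-stimulated genes had the lowest mean in insulin-neutralized birds for 17 of 29 and the highest for 0, with a median of -0.43, but 3 were below at an unadjusted p under 0.05 (10.3%, against 8.13% of all genes) and bird means over the list ranged from 7.59 to 8.79 in insulin-neutralized, 7.57 to 10.58 in fasted and 7.37 to 10.17 in fed birds.

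Markers placed the tissue and its admixtures. The 7 adipocyte markers kept had bird means of 12.34 to 13.01 in insulin-neutralized, 12.37 to 12.93 in fasted and 13.03 to 13.20 in fed birds. In whole tissue, fewer cells of a type and less RNA per cell cannot be told apart. Of 6 T cell markers kept, 2 (1 without fed birds 4 and 5) were below both means at an unadjusted p under 0.05, and bird means were 6.39 to 6.91 in insulin-neutralized, 6.72 to 7.18 in fasted and 6.48 to 7.11 in fed birds. Of 8 macrophage markers 0 were, with bird means of 10.77 to 11.21 in insulin-neutralized, 10.96 to 11.44 in fasted and 10.64 to 11.28 in fed birds. The liver markers ALB and TTR varied from bird to bird within groups. ALB, serum albumin, was at 15.07, 5.89, 5.86, 10.002 and 11.55 in insulin-neutralized birds, at 3.31, 3.91, 6.57, 8.26 and 15.59 in fasted birds and at 7.85, 5.62, 6.0, 6.43 and 4.50 in fed birds, with no difference called (adjusted p = 0.501). APOA1, an apolipoprotein and the third liver marker kept, was at 13.35 to 14.28 in insulin-neutralized, 14.89 to 15.24 in fasted and 13.33 to 14.31 in fed birds (-0.74, adjusted p = 0.0764). Skeletal muscle markers, 2 kept of 7 on the array, averaged 8.13 to 9.46 in insulin-neutralized, 7.59 to 8.07 in fasted and 8.0 to 9.16 in fed birds. The insulin transcript INS was not among the probe sets kept. The 8 markers of ciliated and lung epithelium had bird means of 6.02 to 8.91 in insulin-neutralized, 6.10 to 8.81 in fasted and 4.595 to 8.58 in fed birds. The part of liver, muscle, epithelial and blood cell transcripts in the calls was not tested.

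Other probe sets of the called genes mostly lay on the same side of the midpoint. Of 54 called genes, inside the range included, 28 had 43 further probe sets that were kept and not called. Of these, 40 had the same direction from the midpoint, 27 of them at an unadjusted p under 0.05. That side does not place them outside the range: those of CRIM1, NOL7 and RAB31 lay inside it. The further LHFPL2 and CAB39L probe sets each lay 0.02 above the fed mean. A further UBXN7 probe set lay only 0.007 below the fed mean, and a further REXO1 probe set 0.06 below the fasted mean. Of the 19827 probe sets that the filter removed, 0 separated insulin-neutralized birds from all others, and 0 were called outside the range when the filter was lifted.

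The number of calls depended strongly on single birds. With 1 bird left out, the total called ranged from 2 to 67, and it was lowest without insulin-neutralized birds 1 or 3 or fasted bird 2 (2 each). It stayed at 57, 62 and 67 without fasted bird 1, fed bird 1 and fed bird 3. The direction from the midpoint of the 54 named probe sets turned in 0 of the fits with a bird left out. This is no measure of stability, as they were chosen on the same birds and the direction does not show a place outside the range. Of the 70 probe sets, 68 to 70 still lay outside the range in these fits. Of the 54, 3 lost the call whichever bird was left out, ADAM12, PHLDA2 and REXO1. Without fed birds 4 and 5, 27 probe sets were called outside the range, 21 of them shared with the 70, and 63 of the 70 still lay outside it.

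**Figure D5:**
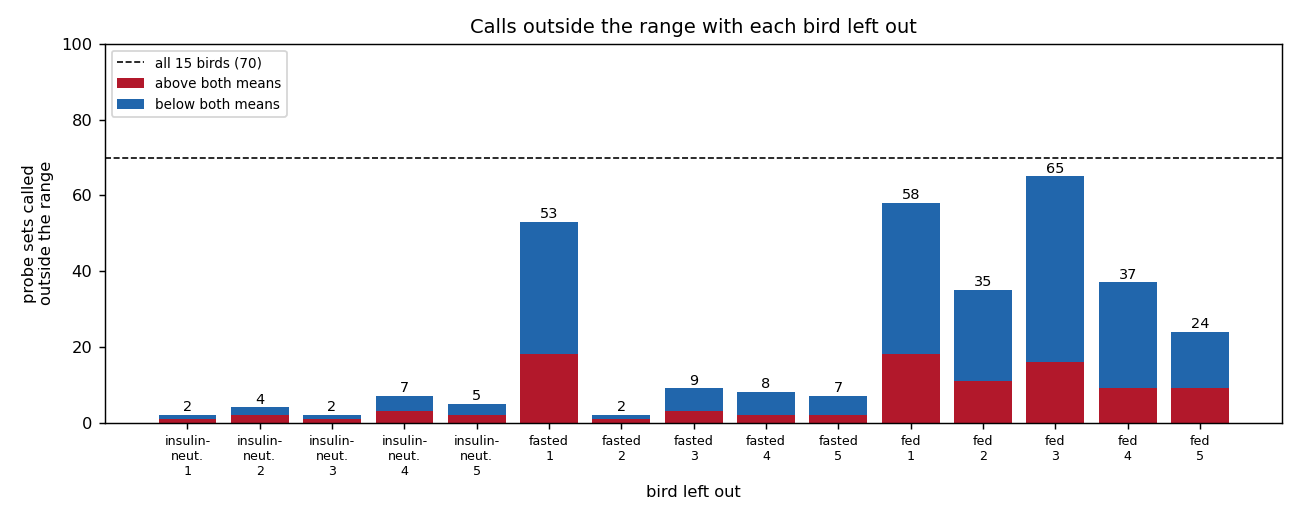
Number of probe sets called above both means and below both means when each bird was left out of the fit, grouped as insulin-neutralized, fasted and fed birds left out. Leaving out an insulin-neutralized bird left 1 to 3 calls above and 1 to 4 below, against 22 and 48 with all birds.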

How the data were processed

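Abdominal adipose tissue of 15 birds was measured on 1 array each. The authors deposited log2 GCRMA values, that is, intensities corrected for background by probe sequence, normalized across arrays and combined into 1 value per probe set. Tools listed in the submitters' processing notes are GCRMA, RMA and R 2.9.0. The metabolite measurements were not analysed here.

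From these, 96 control probe sets and 19827 below 3 on at least 5 arrays were left out, and 18612 remained. The methods' sentence on the filter can also be read as keeping values of 3 or more on at least 5 arrays, which was an alternative. Limma 3.58.1 in R 4.3.3 fitted 3 group means (12 residual and 2.07 prior degrees of freedom), and p-values were adjusted by Benjamini-Hochberg over all probe sets kept. All adjusted p-values in the text are limma's, from the contrast with the midpoint unless another comparison is named. Being beyond both groups was tested with the larger of the 2 p-values against fasted and against fed birds, taken as 1 where their signs differed. Plots were made in matplotlib 3.10.9.

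The platform annotation gives 1 symbol to 14940 kept probe sets, which stand for 9243 genes. In lists (32 of pathways, 16 of markers) the probe set with the highest mean stood for a gene. The text names the 15 called genes below both means that lie farthest from the nearer group mean, and all 11 called genes above both. Up to 4 called members per list are named as well. It also names most of the genes the paper gives for insulin neutralization alone, while LSM14A and ST13 are not described. Further called genes and list genes at an unadjusted p under 0.05 were named after their values were seen. The members and lists were chosen with earlier results of these data known. Not found under their symbols here were TCP11L2 and SEPT10.

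Alternatives were other filters, median centring, quantile normalization, array weights, trended and robust moderation, fasted and fed birds as 1 group, the bird number as a block, 1 probe set per gene, each bird left out, and fed birds 4 and 5 left out. The list counts without these birds and under other scalings were added after seeing the data. The fits were checked on simulated data with known changes. Array values carry no counts, so precision rests on 5 birds a group. No sequence is shown, as none was used here.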

Additional observations from a re-analysis of the deposited data

Results flagged for a closer look

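In 255 groups of 5 birds, for the genes named in the report, 13 held 1 bird far from the other 4 by Dixon's test (gap over range above 0.71), and chance alone flags about 1 in 20 groups. Insulin-neutralized bird 1 was low for BAK1 at 5.76 (others 6.33 to 6.54), for PWP1 at 7.93 (others 8.48 to 8.63) and for NIP7 at 8.87 (others 9.17 to 9.24). Insulin-neutralized bird 4 was high for RANBP10 at 7.13 (others 6.76 to 6.85). Fasted bird 1 was high for KLHL41 at 3.42 (others 3.19 to 3.26), fasted bird 2 was low for a CAB39L probe set at 7.85 (others 8.38 to 8.50), and fasted bird 5 was low for PPP3CB at 8.22 (others 8.42 to 8.44) and high for TTR, transthyretin of the liver, at 13.14 (others 4.53 to 6.11). Fed bird 2 was high for NAB1 at 5.14 (others 5.06 each) and low for CHST13 at 3.65 (others 4.13 to 4.27). Fed bird 5 was high for CD3D at 10.46 (others 9.49 to 9.77) and low for HSPH1 at 6.79 (others 7.64 to 7.75) and for HSP90AA1 at 14.31 (others 15.05 to 15.32).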

How the results depend on the processing

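The main fit gave 74 calls, 22 above and 48 below the range, and 0 beyond both groups after adjustment. Close to these were the wider filter, quantile normalization, trended and robust moderation, 1 probe set per gene and the fold minimum of 1.5 (55 to 76 calls in all, with 14 above for 1 probe set per gene). Calls fell to 12 (3 above, 8 below) with no filter, 17 (8 above, 9 below) with arrays centred on their medians, 31 (7 above, 20 below) without fed birds 4 and 5, and 0 with fasted and fed birds as 1 group of 10, where the test beyond both groups has no value. Array weights raised them to 230 (76 above, 126 below). Beyond both groups, 1 probe set, of ACSL1, was called with array weights (adjusted p = 0.0360) and without fed birds 4 and 5 (adjusted p = 0.0389), and an unnamed 1 without fed bird 3 (adjusted p = 0.0450). With 1 bird left out, total calls were 2 to 67, calls above 1 to 18, calls below 1 to 49 and calls beyond both groups 0 to 1. Residuals of same-numbered birds correlated at -0.39 to 0.38, and 5 of 15 birds correlated best with their own number. With correlations of both signs, these values neither show a pairing of birds by number nor exclude one. With the replicate block, 9 probe sets were called, 3 above and 6 below, and 0 beyond both groups. For named genes, called in the main fit or not, 1767 of the alternative fits kept the direction from the midpoint and the call status. In 868 the call was lost, in 29 it was gained and in 0 the direction turned. Genes not called in the main fit count as kept where they stayed uncalled, so the 1767 do not measure how well calls held. Why calls were lost was not tested. The precision is limited by 5 birds a group.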

Other observations

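Of 16 circadian clock genes, 8 had the highest mean in insulin-neutralized birds (50%) and 2 the lowest (12.5%), against 29.9% and 30.2% of all genes. At an unadjusted p under 0.05 stood 2 above both means (12.5%) and 1 below (6.25%), against 5.83% and 8.13% of all genes. BHLHE40, a repressor of the clock, was the farthest below, at -0.81 from the midpoint (adjusted p = 0.0542 with limma). In amino acid handling, ALDH1L2, a mitochondrial enzyme of one-carbon metabolism, stood at 0.73 (adjusted p = 0.0953) and the amino acid transporter SLC38A2 at 0.42 (adjusted p = 0.272), both above both feeding states. DLST, a subunit of the 2-oxoglutarate dehydrogenase complex, stood at -0.50 (adjusted p = 0.0634). It was 1 of 23 genes of the TCA cycle below both means at an unadjusted p under 0.05 (4.35%, against 8.13% of all genes). None of these genes was called. Lifting the filter brought in 1 further DUSP5 probe set, at -1.53 from the midpoint (adjusted p = 3.7e-06), which lay inside the range.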
